A study of Phrynocephalus vlangalii with 2 samples.

Results

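Neurofilament, synaptic vesicle and SNARE genes were examined in RNA of the toad-headed lizard Phrynocephalus vlangalii. They were the assembled genes whose annotation text equalled neurofilament light polypeptide or MFS transporter, VNT family, synaptic vesicle glycoprotein 2, or held the words neurofilament, synaptotagmin, synaptophysin, syntaxin 1 or synaptosomal-associated. These words found 30 of the 58458 assembled genes, under 11 of 4819 annotation texts. Of the 30, the word neurofilament found 2, the vesicle glycoprotein text 6, syntaxin 1 found 15 and synaptosomal-associated 7, while synaptotagmin and synaptophysin matched 0. The word syntaxin 1 also took in syntaxin 11, syntaxin 16, syntaxin 17 and syntaxin 18, which are not forms of the neuronal syntaxin 1. The neurofilament light and vesicle glycoprotein texts were chosen by their reads, which were higher in the Madoi library than in the Maqu library, so their ratios are given as a description with no test.

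One library each was made from adults of the Madoi population and of the Maqu population, both with liver, lung, heart and muscle given as the tissue. Neither nervous tissue nor a number of animals is given in the labels. The Madoi library held 63636521 estimated reads and the Maqu library 66401051. There was 1 library per population, so the differences below have no replicates behind them and describe these libraries, not the populations. Liver and lung markers were lower in Madoi by their sums (for liver 1118 CPM in Madoi against 2075 CPM in Maqu, over 5 names, and for lung 369 CPM in Madoi against 758 CPM in Maqu, over 3 names; CPM are counts scaled to library size). Heart markers summed to 115 CPM in Madoi against 112 in Maqu over 4 names, of which 2 were higher in Madoi, and skeletal muscle markers to 13004 CPM in Madoi against 13901 in Maqu over 5 names. The markers of liver, and those of heart, did not all go one way, and whether the tissues made up different shares of the libraries was not tested.

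Neurofilaments are the intermediate filaments of nerve cell axons, built from light, medium and heavy subunits, and they set how wide an axon grows. At nerve endings, transmitter is stored in synaptic vesicles and released when SNARE proteins of the vesicle and of the plasma membrane zip together. Syntaxin 1 is the plasma membrane SNARE of that step in neurons, whereas most other syntaxins and the synaptosomal-associated proteins of 23kDa and 29kDa serve membrane fusion in nearly all cells. In liver, lung, heart and muscle, axons of autonomic, sensory and motor nerves are present, but most of the nerve cell bodies lie elsewhere.

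A call of higher or lower in Madoi required 10 reads or more over the pair of libraries, a difference of 2-fold or more, and a 95% counting interval of the ratio (Clopper-Pearson, exact) that left out 1. Of the 30 assembled genes, 30 had at least 10 reads, and 16 were higher, 1 lower and 13 neither. Over all 58439 assembled genes with at least 10 reads, 28.5% were higher by this rule and 10.7% lower. Of the 16, a total of 13 had 0 reads in Maqu, where a gene with enough Madoi reads is higher by construction, so this count carries no information about the group. These 13 copies may not be lizard transcripts. They are marked by their 0 Maqu reads under each name, and counts by name are also given without them. Among the other 17, which had reads in both libraries, 3 were higher and 1 lower, beside 13.1% higher and 13% lower of all assembled genes with Maqu reads. The 3 were neurofilament light, a vesicle glycoprotein copy and a syntaxin 11 copy. Both of the former were chosen for higher Madoi reads, so this count carries no information about the group either. Nearest to the line between both classes were a syntaxin 11 copy with 6 Maqu reads and a vesicle glycoprotein copy with 10.

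**Figure D1:**
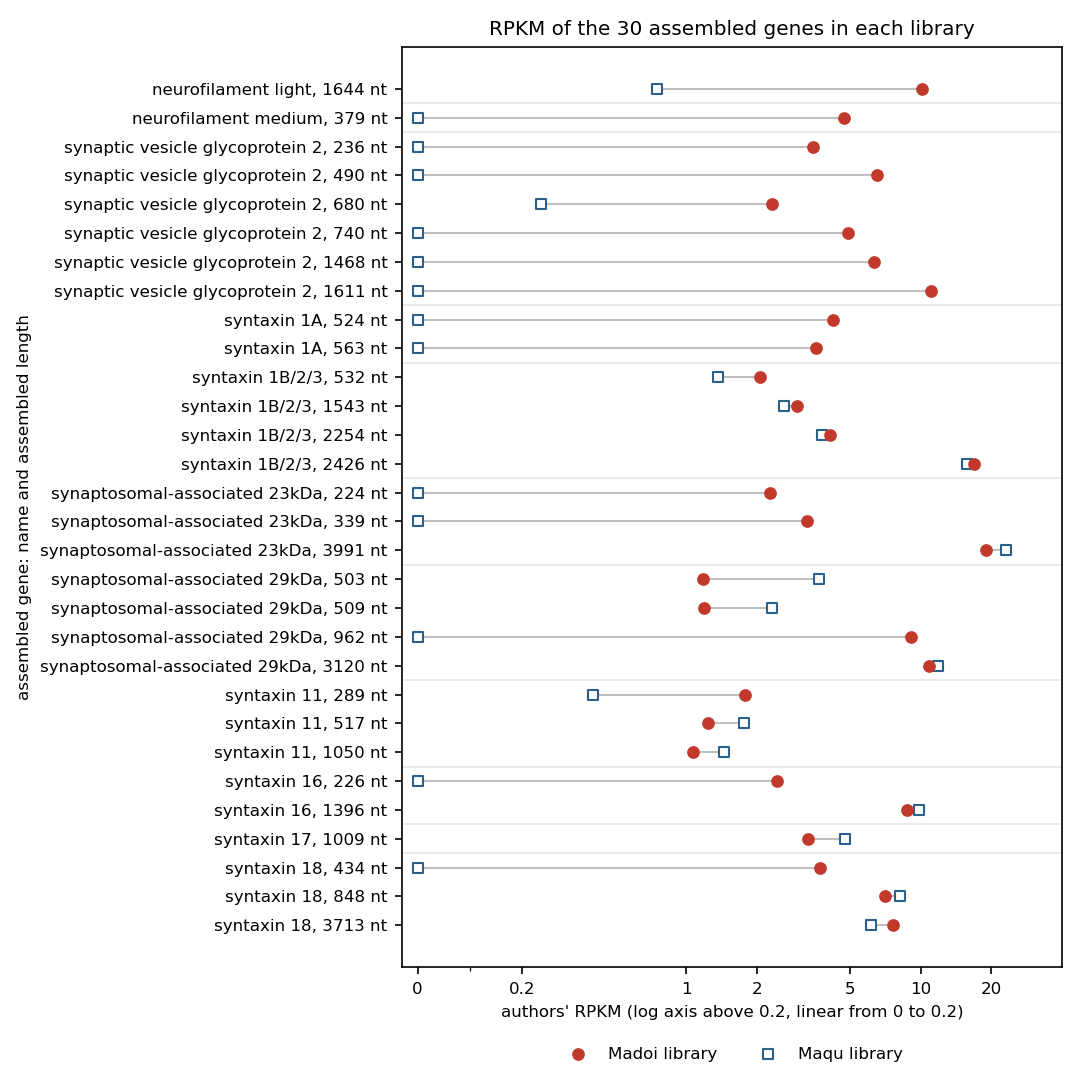
RPKM (reads scaled to gene length and library size, the authors' values) of the 30 assembled genes in the Madoi library (filled circles) and the Maqu library (open squares), 1 line per assembled gene with its assembled length, on a log axis above 0.2 and a linear one below. Of the lines, 13 end at 0 in Maqu, the neurofilament light gene stands at 10.1 in Madoi against 0.75 in Maqu, and most of the syntaxin and synaptosomal-associated pairs lie close together.

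Neurofilament light polypeptide, the core subunit of neurofilaments, had 1067 Madoi reads against 82 Maqu reads, all in 1 assembled gene of 1644 bases (comp8688_c0). Its level was 10.1 RPKM in Madoi, against 0.75 RPKM in Maqu. The log2 ratio of Madoi over Maqu was 3.80, with a 95% counting interval from 3.49 to 4.15, which is 14.0-fold higher in Madoi. This assembled gene had reads in both libraries and no second copy, so its ratio did not rest on any copy at 0. In RNA of whole tissues, more nerve tissue and more RNA of this gene per cell cannot be told apart. Which cells the reads came from was not tested. In the deposited gene ontology text it carried the terms neurofilament, neurofilament bundle assembly and axon transport of mitochondrion, matching its name. The authors' deposited table gave it a log2 fold change of 3.75 with an FDR of 0.159 and marked it significant. The ontology word neurofilament, chosen after the values were seen, also stood in 4 assembled genes whose annotation texts did not hold that word. Of these, 0 were higher and 0 lower, with a median log2 ratio of 0.05. Over all assembled genes with Maqu reads, 13.1% were higher and 13% lower.

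The neurofilament medium polypeptide text, the subunit whose long tail forms side arms between filaments, belonged to 1 short assembled gene of 379 bases with 97 Madoi reads against 0 Maqu reads. Its level was 4.72 RPKM in Madoi. Against a limit of 3 counts in Maqu (0.0444 CPM) it was 34.9-fold higher. The counting interval of its log2 ratio began at 4.80. The annotation of this copy was mixed. Its text and its class, cytoskeleton, named a filament protein, whereas its ontology terms were those of a cyclin-dependent kinase of the nucleus, and its protein identifier was shared with an assembled gene named Cdc2-related kinase, arginine/serine-rich. That second gene had 1770 Madoi reads against 1918 Maqu reads. The values above, and those of this text elsewhere, therefore describe this copy and are not given as a ratio of a lizard neurofilament medium gene.

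Synaptic vesicle glycoprotein 2 is a membrane protein of synaptic vesicles and of the granules of endocrine cells. Its text covered 6 assembled genes with 2274 Madoi reads against 10 Maqu reads together, but 5 of the 6 had 0 Maqu reads and held 95.8% of the Madoi reads. The sixth copy, of 680 bases, had 95 Madoi reads against 10 Maqu reads, levels of 2.33 RPKM in Madoi and 0.24 RPKM in Maqu. Its log2 ratio was 3.29 (counting interval 2.42 to 4.46), or 9.80-fold higher in Madoi. It was also the only one of the 6 with a protein identifier and with ontology terms, which included synaptic vesicle membrane and neurotransmitter transport. The authors' deposited table did not mark this copy significant (FDR 0.786). Summed over the 6 copies the log2 ratio was 7.87, so the size of the difference under this name depended on the copies at 0.

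The other 5 copies ran from 236 to 1611 bases. They had 38, 182, 219, 592 and 1148 Madoi reads against 0 Maqu reads, which are levels of 3.46, 6.49, 4.88, 6.31 and 11.1 RPKM in Madoi. Against the limit of 3 counts in Maqu they were 13.7, 65.5, 78.8, 213 and 413-fold higher, with their Madoi reads taken as exact. Their counting intervals began at log2 ratios of 3.40, 5.72, 5.99, 7.43 and 8.39. Each of these copies had neither a protein identifier nor ontology terms in the file. The longest of them stood above neurofilament light in RPKM in the Madoi library.

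**Figure D2:**
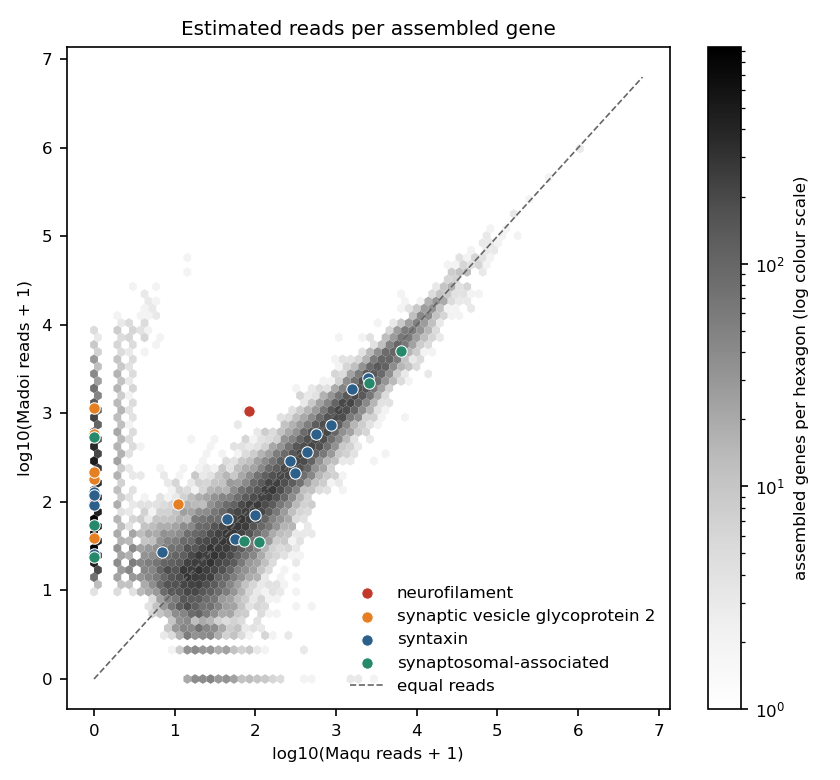
Estimated reads per assembled gene in the Madoi library (vertical axis) and the Maqu library (horizontal axis), both as log10 of reads plus 1, with all 58458 assembled genes as grey hexagons, the 30 described here as coloured points and a dashed line of equal reads. The neurofilament light point (1067 Madoi reads, 82 Maqu reads) and a vesicle glycoprotein point (95 Madoi reads, 10 Maqu reads) lie above the dashed line. Of all assembled genes with Maqu reads, 6308 were also called higher in Madoi. On the vertical axis, at 0 Maqu reads, lie 13 points.

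Syntaxin 1A, the neuronal plasma membrane SNARE, was the text of 2 assembled genes, with 128 and 118 Madoi reads against 0 Maqu reads for each. Their levels were 4.22 and 3.58 RPKM in Madoi. As a sum of 246 reads the text was 88.5-fold higher in Madoi against the limit of 3 counts. Its counting interval began at a log2 ratio of 6.16. Both copies shared 1 protein identifier, and their ontology terms included haltere development and localization of oskar mRNA, which are terms of fly development. Outside the 30, the word oskar stood in the ontology text of 21 assembled genes, of which 20 (95.2%) had 0 Maqu reads, and the word imaginal in 76, of which 72 (94.7%) had 0. In the whole data set 17.7% of assembled genes had 0 Maqu reads and 0.518% had 0 Madoi reads. These ontology words were chosen after the values were seen, and whether the copies come from another organism was not tested.

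The text syntaxin 1B/2/3 covers a neuronal form and the broadly used syntaxins of the plasma membrane under one name, so a neuronal share cannot be read from it. Its 4 assembled genes all had reads in both libraries. The largest, of 2426 bases, had 2541 Madoi reads against 2471 Maqu reads, levels of 16.9 RPKM in Madoi and 15.8 RPKM in Maqu. The next had 588 Madoi reads against 556 Maqu reads, and the smaller ones 293 Madoi reads against 269 Maqu reads and 64 Madoi reads against 44 Maqu reads. All 4 log2 ratios lay between 0.15 and 0.64, and 0 passed the 2-fold threshold. Summed, the name had 3486 Madoi reads against 3340 Maqu reads, a log2 ratio of 0.17 (counting interval 0.10 to 0.24).

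Synaptosomal-associated protein, 23kDa, the counterpart outside neurons of the neuronal SNARE of the same family, had 3 copies. Its long copy of 3991 bases, the highest by RPKM of the 30 single assembled genes in either library, stood at 19.0 RPKM in Madoi and 23.1 in Maqu, from 5022 Madoi reads against 6342 Maqu reads, and had a log2 ratio of -0.23 (counting interval -0.28 to -0.17). Its 2 short copies had 23 and 54 Madoi reads against 0 Maqu reads. They share an assembly component and a protein identifier, so they are not independent of each other. Their ontology terms included synaptic vesicle priming and regulation of neuronal synaptic plasticity, which the long copy lacked. Whether the short copies are the form outside neurons, and whether they are lizard transcripts, was not tested.

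Synaptosomal-associated protein, 29kDa, which acts in fusion inside the cell, among other places between autophagosomes and lysosomes, held the single lower call. Of its 4 copies, the one of 503 bases had 34 Madoi reads against 111 Maqu reads, a log2 ratio of -1.58 (counting interval -2.20 to -1.03). Its neighbour from the same assembly component had 35 Madoi reads against 71 Maqu reads, a ratio of -0.90 below the 2-fold threshold. The copy of 3120 bases carried most reads, 2218 in Madoi and 2537 in Maqu, with a ratio of -0.08. The copy of 962 bases had 542 Madoi reads against 0 Maqu reads, although its protein identifier was the same as that of the 3120-base copy. Because of it the sum over copies stood at 0.17, and at -0.14 over the 3 copies with Maqu reads.

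The remaining syntaxins act in membrane traffic of most cells. Syntaxin 17 of autophagosomes had 209 Madoi reads against 310 Maqu reads, with a log2 ratio of -0.46. Syntaxin 16 of the trans-Golgi network had 737 Madoi reads against 877 Maqu reads in its long copy, a ratio of -0.14, and 25 Madoi reads against 0 Maqu reads in a short one. Syntaxin 18 of the endoplasmic reticulum had 1871 Madoi reads against 1560 Maqu reads in its longest copy, a ratio of 0.37, then 363 Madoi reads against 432 Maqu reads in the next and 91 Madoi reads against 0 Maqu reads in the shortest. The annotation of the longest copy was mixed. Its ontology terms included Golgi membrane and dopamine receptor binding, and lacked the SNAP receptor activity that the other copies of this text carried. Whether the longest copy is a syntaxin was not tested. None of these syntaxin 16, 17 and 18 copies with Maqu reads passed the threshold. Syntaxin 11, known from the cytotoxic granules of immune cells in mammals, had copies on both sides. Its shortest copy, of 289 bases, had 26 Madoi reads against 6 Maqu reads, a ratio of 2.13 (counting interval 0.91 to 3.80), and was called higher. The longer ones had 37 Madoi reads against 55 Maqu reads and 70 Madoi reads against 99 Maqu reads, ratios of -0.46 and -0.39, and the sum of the name was 133 in Madoi and 160 in Maqu.

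**Figure D3:**
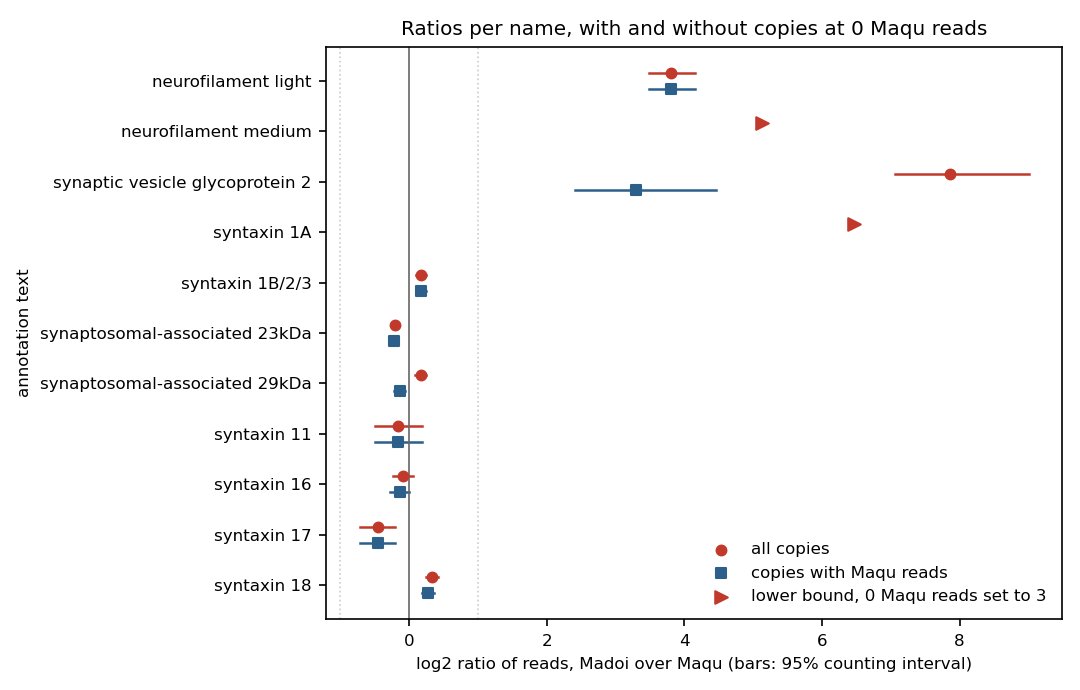
Log2 ratio of reads, Madoi over Maqu, for the 11 annotation texts, summed over all copies (circles) and over copies with Maqu reads (squares). Bars are 95% counting intervals and dotted lines the 2-fold threshold. Triangles are texts at 0 in Maqu, drawn with Maqu set to 3 counts. Of the 9 texts with Maqu reads, neurofilament light at 3.80 and synaptic vesicle glycoprotein 2 at 3.29 stand right of the threshold, and the other 7 lie between -0.46 and 0.28 by the squares.

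By name, then, 4 of the 11 texts were higher in Madoi and 0 lower, beside 11.6% higher and 6.33% lower of all 4819 texts. Of the 4, neurofilament medium and syntaxin 1A had copies at 0 in Maqu only, and the annotation of the former was mixed. Without copies at 0 in Maqu, 2 of 9 texts were higher and 0 lower, beside 5.89% higher and 7.15% lower of 4702. The median log2 ratio of the 9 was -0.14, and that of the 4702 was 0.00. Among copies read in both libraries, the higher texts were neurofilament light and synaptic vesicle glycoprotein 2, with 1 copy each. Both texts were chosen for their higher Madoi reads and are part of both counts. The counts therefore carry no information on whether neuronal genes were higher in Madoi. The other 7 texts, of syntaxins and synaptosomal-associated proteins, were neither higher nor lower.

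The 13 copies at 0 in Maqu were also set beside the other 17 by length, level and annotation. They made up 43.3% of the 30, beside 20.2% of the 14472 annotated assembled genes. Of the 13, 5 were of the vesicle glycoprotein text, which was chosen for its higher Madoi reads. That choice raised the share, so it is not read as a trait of these genes. They had a median length of 490 bases, from 224 to 1611, while the 17 with Maqu reads had a median of 1050 bases, from 289 to 3991. The ranges overlapped, and the same medians over the whole table were 396 and 501 bases. Their levels in Madoi lay between 2.28 and 11.1 RPKM with a median of 4.22, beside a median of 3.84 RPKM for all 10345 assembled genes at 0 in Maqu. All 6 assembled genes of the 30 that lacked a protein identifier were among the 13, while the other 7 of the 13 had one. Of the 11 texts, 7 had at least 1 such copy. The authors' deposited table marked 8 of the 30 significant, 7 of them at 0 in Maqu, beside 10.4% of all assembled genes. Neurofilament light and copies of the vesicle glycoprotein, both chosen for higher Madoi reads, are among the 8. This share therefore carries no information about the group. That table marked genes with an FDR of up to 0.441, so its mark is not a call at a low FDR.

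Other markers of neurons were named to see how neurofilament light compared with them. This list was matched by hand with earlier results of these data known, so its counts are a description only. Of 15 texts, 5 were higher in Madoi, 1 lower and 9 neither, with a median log2 ratio of 0.61. None of the 15 had a copy at 0 in Maqu. Over all texts, counting copies with Maqu reads, 5.89% were higher and 7.15% lower, with a median of 0.00. The GABA A receptor gamma 2 subunit, part of a chloride channel opened by an inhibitory transmitter, had 1588 Madoi reads against 61 Maqu reads, a log2 ratio of 4.80 (counting interval 4.44 to 5.21). Contactin 2, an adhesion protein of axons, had 257 Madoi reads against 44 Maqu reads, a ratio of 2.64. Contactin 1 at 1.61, the delta 1 ionotropic glutamate receptor at 1.69 and neurexin at 1.37, named after their values were seen, were the other higher texts. At the opposite end, microtubule-associated protein 2, a protein of dendrites, had 37 Madoi reads against 70 Maqu reads, a ratio of -0.80, and contactin 4 had 8450 Madoi reads against 12318 Maqu reads, a ratio of -0.43.

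The other neuron texts were named after their values were seen, and some of them had ratios near 0. Ubiquitin carboxyl-terminal hydrolase L1, among the most abundant proteins of neurons, had 4072 Madoi reads against 4432 Maqu reads, a log2 ratio of -0.01. Microtubule-associated protein tau of axons had 69 Madoi reads against 67 Maqu reads, a ratio of 0.15. The kainate 3 glutamate receptor stood at 0.09, the type IX alpha sodium channel at 0.33 and the N type calcium channel at 0.62. Neuronal cell adhesion molecule (13 Madoi reads, 9 Maqu reads) stood at 0.61. The GABA A receptor delta subunit (20 Madoi reads, 13 Maqu reads) stood at 0.71. All of these were neither higher nor lower. The type I alpha voltage-gated sodium channel had 0 Madoi reads against 12 Maqu reads. Against the limit of 3 counts it was 3.71-fold lower in Madoi, with a counting interval up to a log2 ratio of -1.36. Summed over the 15 texts, neuron markers amounted to 252 CPM in Madoi and 261 in Maqu, a sum that contactin 4 and the hydrolase lead.

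**Figure D4:**
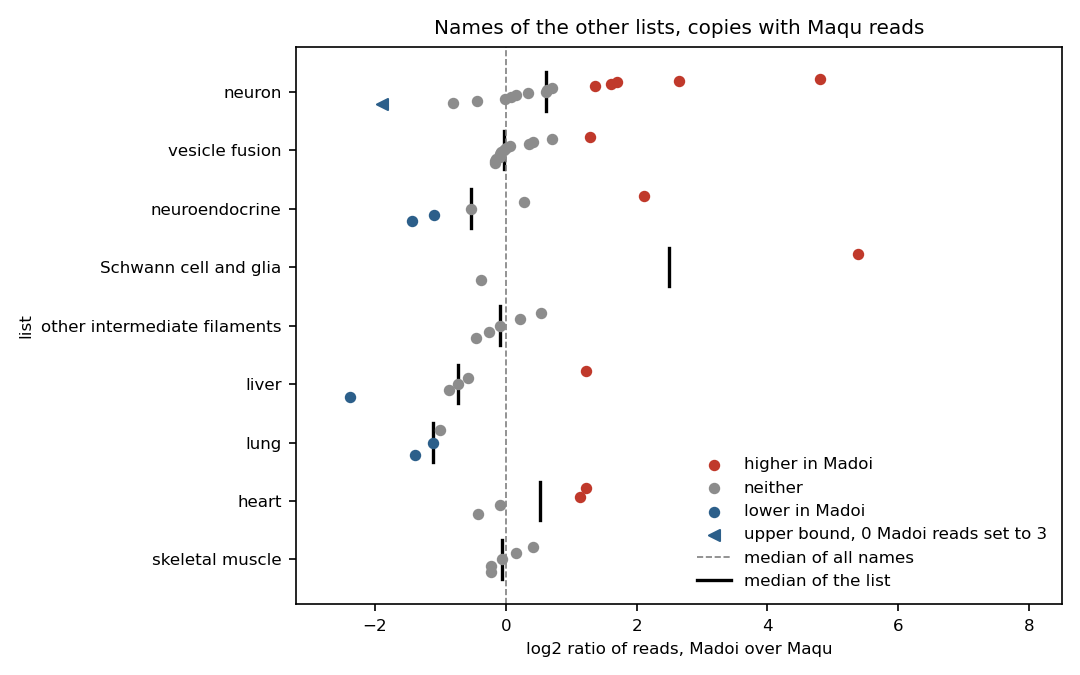
Log2 ratio of reads, Madoi over Maqu, of the texts in each further list, over copies with Maqu reads, with 1 point per text coloured by its call, a black bar at the list's median and a dashed line at the median of all texts. Neuron texts reach from the sodium channel, drawn at its bound, to the GABA A receptor subunit at 4.80, while of the vesicle fusion texts only vesicle-associated membrane protein 5, at 1.29, passes the threshold and Rab-3A, at 0.70, comes next.

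The general machinery of vesicle fusion had ratios near 0 in most of its texts. Of its 13 texts, 1 was higher, 0 lower and 12 neither, beside 11.6% higher and 6.33% lower of all 4819 texts. The median log2 ratio of the 13 was 0.07, and -0.03 over copies with Maqu reads. The higher one was vesicle-associated membrane protein 5, a protein of muscle cells, with 1776 Madoi reads against 782 Maqu reads and a ratio of 1.29. Vesicle-associated membrane protein 1, the vesicle SNARE of motor nerve endings, had 9304 Madoi reads against 7452 Maqu reads, a ratio of 0.43. Without its copy at 0 in Maqu the ratio was 0.36. The related vesicle SNAREs 4, 7 and 8 stood at -0.07, 0.07 and -0.15, and synaptobrevin homolog YKT6 at 0.42. Ras-related protein Rab-3A, which sits on synaptic vesicles, had 35 Madoi reads against 23 Maqu reads, a ratio of 0.70 whose counting interval from -0.08 to 1.54 includes 0, and Rab-3D of secretory granules stood at -0.16.

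Vesicle-fusing ATPase, which takes spent SNARE complexes apart, had 3568 Madoi reads against 3223 Maqu reads, a log2 ratio of 0.26. Without its 4 copies at 0 in Maqu the ratio was -0.09. Syntaxin 5 of the Golgi stood at 0.73 in the same way, and at -0.03 without its copy at 0. The endosomal syntaxin 6, syntaxin 7 and syntaxin 8 stood at 0.01, -0.16 and -0.09.

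Markers of endocrine and autonomic cells, which also hold synaptic vesicle glycoprotein 2, went different ways. Of 6 texts, 2 were higher, 2 lower and 2 neither, beside 11.6% higher and 6.33% lower of all 4819 texts. Their median log2 ratio was -0.13, with summed levels of 66.8 CPM in Madoi and 47.5 in Maqu. Over copies with Maqu reads, 1 of 5 texts was higher and 2 lower, with a median of -0.53, beside 5.89% and 7.15% of 4702. Carboxypeptidase E, which trims peptide hormones, had 2439 Madoi reads against 609 Maqu reads, a ratio of 2.11. Dopamine beta-monooxygenase, which makes noradrenaline, had 152 Madoi reads against 0 Maqu reads, all in 1 copy. Its call was thus higher by construction, and it may not be a lizard transcript. Against the limit of 3 counts it was 54.7-fold higher, with a counting interval from a log2 ratio of 5.46. Aromatic-L-amino-acid decarboxylase, which makes dopamine and serotonin, had 76 Madoi reads against 222 Maqu reads, a ratio of -1.43, and calcitonin 425 Madoi reads against 978 Maqu reads, a ratio of -1.09. Proprotein convertase subtilisin/kexin type 2, a hormone-cutting protease, stood at 0.28 and acetylcholinesterase at -0.53. Their part in the vesicle glycoprotein ratio was not tested.

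The glial texts were split as well. Myelin protein zero, the main protein of Schwann cell myelin, had 1856 Madoi reads against 2604 Maqu reads, a log2 ratio of -0.38. Glial fibrillary acidic protein, an intermediate filament of glia, had 58 Madoi reads against 1 Maqu read, a ratio of 5.38 (counting interval 3.43 to 11.30). Summed, both amounted to 30.6 CPM in Madoi and 38.6 in Maqu. The texts for intermediate filaments of other cells included 0 higher and 0 lower of 5, with a median of 0.21, beside 11.6% higher and 6.33% lower of all texts. They were led by desmin of muscle with 124636 Madoi reads against 160536 Maqu reads, a ratio of -0.26, and included nestin at -0.08, lamin at 0.21, type I keratin at 0.22 and type II keratin at 0.54. Without copies at 0 in Maqu lamin stood at -0.45 and the median of the 5 at -0.08.

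Markers of the sampled tissues were present in both libraries. For comparison, 11.6% of all 4819 texts were higher in Madoi and 6.33% lower. Of 5 liver texts 1 was higher in Madoi and 1 lower, with a median log2 ratio of -0.73. They ran from apolipoprotein A-I of plasma lipoproteins at 1.23 and fibrinogen gamma chain at -0.57 to fibrinogen alpha chain, a clotting protein, at -0.87 and 4-hydroxyphenylpyruvate dioxygenase of tyrosine breakdown at -2.39. Of 3 lung texts 2 were lower and 0 higher, the lower ones being surfactant protein A at -1.12 and the transcription factor Nkx-2.1 at -1.38. Surfactant protein D, with 16002 Madoi reads against 34489 Maqu reads, lay just inside the threshold. Of 4 heart texts 2 were higher, T-box protein 5 at 1.23 and Nkx-2.5 at 1.13, while natriuretic peptide A stood at -0.09 and phospholamban at -0.42. Of 5 skeletal muscle texts 0 passed the threshold, from troponin C at 0.41 and fast troponin T at 0.16 to skeletal alpha actin at -0.22 and ryanodine receptor 1 at -0.23. The part of the tissues in the ratio of neurofilament light was not tested.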

How the data were processed

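Per the labels' protocols, total RNA was extracted by the SV system of Promega, followed by standard Illumina library preparation. Assembly with Trinity, and use of BLAST and KaKs_Calculator, are named in the series' design text. How reads were aligned and counted, and which test gave the p-values, is not stated in those sources. The deposited table gives, per the file headers, the authors' expected counts (estimated reads, with decimals), RPKM values, log2 fold changes of Madoi over Maqu, and p-values and FDR for single libraries, which are quoted only as the authors' own.

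Expected counts were rounded and scaled by TMM (edgeR 4.0.16; factors 0.983 for Madoi and 1.02 for Maqu). A pseudocount of 0.5 reads, in proportion to each library's size, was added before log2 ratios were taken. Intervals are exact 95% binomial (Clopper-Pearson) and, like the limit of 3 counts (0.0479 CPM in Madoi, 0.0444 in Maqu), cover counting error only, since reads are not independent molecules. Folds against the limit of 3 counts take the other library's count as exact, so they are not lower bounds. Copies of one text were summed. With 1 library per population no test between populations was made. The code that makes the calls was checked on simulated counts with set fold changes.

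The genes described and the lists were chosen with earlier results of these data known; list names were matched by hand to annotation texts, leaving out texts of broader families. All matching assembled genes are accounted for. Of each further list the 2 highest and 2 lowest texts with at least 50 reads, and every vesicle fusion text, are named. Further texts outside this rule, among them all the other neuron texts, were named after their values were seen. No sequence was used here. Alternatives were library totals, DESeq2 1.42.0 size factors, other filters, pseudocounts and thresholds, the highest copy, the authors' RPKM and leaving out copies at 0. Setting texts at 0 to 3 counts was added after seeing the data. Python with numpy, pandas, scipy and matplotlib was used.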

Additional observations from a re-analysis of the deposited data

How the results depend on the processing

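Neurofilament light kept its ratio within its counting interval under library totals, DESeq2 size factors, a pseudocount of 5 reads and the authors' RPKM. Other filters, the highest copy and leaving out copies at 0 could not change it, since it is 1 copy with reads in both libraries. Synaptic vesicle glycoprotein 2 stood at 11.22 with its highest copy, and at 3.29 without copies at 0 Maqu reads or without copies at 0 or beyond a log2 ratio of 5. Under both of the last settings, the assembled genes higher in Madoi numbered 3 instead of 16, which follows from leaving out the 13 copies. With a filter of at least 50 reads they numbered 12, and the syntaxin 11 copy with 6 Maqu reads was among those left out. With a 4-fold threshold 0 were lower instead of 1. The ratio of the 29kDa synaptosomal-associated protein turned from 0.17 to -0.14 without copies at 0, and to -0.08 with its highest copy. With the authors' RPKM, which weighs short copies more, the 23kDa protein turned from -0.20 to 0.09. Syntaxin 16 turned from -0.09 to 0.18 in that setting, and syntaxin 11 from -0.16 to 0.18. None of these was a called difference. With a pseudocount of 5 reads the fitted ratios of the texts at 0 in Maqu, neurofilament medium and syntaxin 1A, fell to 4.40 and 5.70, and no weight rests on fitted values at 0. The median of the 2 glial texts, above 0 otherwise, turned to -0.38 without copies beyond a log2 ratio of 5, which leaves myelin protein zero alone. The median of the other intermediate filaments, 0.21, turned to -0.08 with the highest copy and without copies at 0, and that of vesicle fusion, 0.07, to -0.07 with the highest copy, to -0.03 without copies at 0, and to 0.33 with the authors' RPKM. The neuroendocrine median, -0.13, stood at -0.53 without copies at 0 and at -0.59 with RPKM. The other list medians kept their sign. No paired analysis was possible because there is 1 library per population. Depth limits mainly the short copies, such as the syntaxin 11 copy with 6 Maqu reads.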

Other observations

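Assembled genes outside the 30 were also counted by ontology terms of nerve cells, chosen after the values were seen. Of all assembled genes 17.7% had 0 Maqu reads, and of those with Maqu reads 13.1% were higher and 13% lower. Of 23 with the term synaptic vesicle membrane, 2 had 0 Maqu reads, and of the other 21, 4 were higher in Madoi and 4 lower, with a median log2 ratio of -0.11. Of 75 with the term axon, 16 (21.3%) had 0 Maqu reads, and of the other 59, 2 were higher and 4 lower, with a median of -0.08. Of 25 with the term neurotransmitter secretion, 14 (56.0%) had 0 Maqu reads, and of the other 11, 2 were higher and 2 lower, with a median of 0.40. Of 7 with the term myelin sheath, 0 had 0 Maqu reads, 0 were higher and 1 was lower, with a median of -0.69.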
